A study of Mus musculus with 16 samples.

Results

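Liver chromatin accessibility was compared between the fed and the fasting state, using 2 of the 16 ATAC-seq libraries of a study of 8 mouse organs. ATAC-seq marks open DNA by the cuts of the Tn5 transposase. The 2 libraries were those labelled Liver_Fed and Liver_Fasting, and the units described are the regions listed as open in each. Both came from adult male C57BL/6 mice that carried no stated transgene. The fed mice had chow and water at all times, and the fasting mice went without food for a day. Liver powder of several mice of a state was pooled in equal proportions and nuclei were taken from the frozen pool, so there was 1 library a state and no replicate check. No test between the states was therefore possible, and every interval given is an exact 95% interval for counting error only. Regions with a q-value of at most 0.01 formed the set of a library, which held 201093 regions in fed and 166725 in fasting liver. A region was called fasting-only or fed-only where no listed peak of the other state overlapped it by 1 bp, which gave 64746 fasting-only and 89903 fed-only regions.

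In the fed liver, insulin favours glycogen storage and the synthesis of fatty acids. When food is withdrawn, insulin falls while glucagon and glucocorticoids act on hepatocytes, which then release glucose made from lactate, glycerol and amino acids. Fatty acids from adipose tissue are oxidised, ketone bodies are exported, and the nuclear receptor PPARA drives many of the genes for this oxidation.

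Example regions of the comparison are shown first, as 201 bases of the GRCm38 plus strand centred on the summit. They were chosen after their values were seen. Apart from the Cyp4a14 region, each was picked from regions that hold the letters marked in it, so their presence is no result. Letters searched for are in capitals. Strength is given in tags, the Tn5 cuts counted at a region's summit, as worked back from its deposited fold enrichment and p-value. The first 3 were fasting-only regions near genes of fatty acid oxidation. The Cyp4a14 region (chr4:115485145-115485345, intergenic, 10895 bp from a start) had 148 tags at its summit in fasting and held none of the motifs searched. The Ehhadh region (chr16:21790566-21790766, intergenic, 2859 bp from a start) had 34 tags. The Cpt2 region (chr4:107890673-107890873, 21993 bp from a start of Cpt2, but in an intron of 0610037L13Rik and 533 bp from a start of that gene) had 45 tags. Both hold the letters AGGTCAAAG, the core of the direct repeat read by PPARA and HNF4A, the Ehhadh region on the plus strand and the Cpt2 region on the minus strand.
Cyp4a14 region: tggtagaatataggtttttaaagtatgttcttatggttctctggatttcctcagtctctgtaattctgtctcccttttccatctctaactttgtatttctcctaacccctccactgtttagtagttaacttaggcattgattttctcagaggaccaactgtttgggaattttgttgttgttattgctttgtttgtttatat
Ehhadh region: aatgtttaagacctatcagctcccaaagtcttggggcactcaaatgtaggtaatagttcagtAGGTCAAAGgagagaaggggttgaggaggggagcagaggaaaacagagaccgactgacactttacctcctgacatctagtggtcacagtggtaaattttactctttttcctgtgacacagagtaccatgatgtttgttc
Cpt2 region: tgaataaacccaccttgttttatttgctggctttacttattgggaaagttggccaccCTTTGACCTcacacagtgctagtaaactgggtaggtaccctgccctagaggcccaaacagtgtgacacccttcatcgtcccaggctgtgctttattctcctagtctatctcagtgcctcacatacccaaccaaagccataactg

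The next pair were open in both states and had more tags in fasting. The Gpt2 region (chr8:85506658-85506858, in an intron of Gpt2) went from 18 to 91 tags and holds the same repeat core on the minus strand. The Fkbp5 region (chr17:28420141-28420341, in an intron of Fkbp5, 1714 bp from a start) went from 13 to 94 tags and holds the palindromic core of the glucocorticoid response element, ACANNNTGT.
Gpt2 region: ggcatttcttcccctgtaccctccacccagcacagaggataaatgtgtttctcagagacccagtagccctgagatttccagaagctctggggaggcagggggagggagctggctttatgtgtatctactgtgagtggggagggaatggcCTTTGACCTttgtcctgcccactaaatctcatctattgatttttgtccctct
Fkbp5 region: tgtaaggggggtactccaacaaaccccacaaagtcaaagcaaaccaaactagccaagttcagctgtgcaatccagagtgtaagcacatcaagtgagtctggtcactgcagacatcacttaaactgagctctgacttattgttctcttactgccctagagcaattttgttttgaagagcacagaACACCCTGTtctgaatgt

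The last pair belonged to the fed state. The Vti1a region (chr19:55394201-55394401, in an intron of Vti1a) was the strongest fed-only region by p-value, with 44 tags. The Egfr region (chr11:16792421-16792621, in an intron of Egfr) was listed in both states and went from 67 to 21 tags. The capitals mark TTCNNNGAA, the palindrome read by STAT5, the factor through which growth hormone acts on the liver. The Egfr window also holds the repeat core AGGTCAAAG, left in lower case.
Vti1a region: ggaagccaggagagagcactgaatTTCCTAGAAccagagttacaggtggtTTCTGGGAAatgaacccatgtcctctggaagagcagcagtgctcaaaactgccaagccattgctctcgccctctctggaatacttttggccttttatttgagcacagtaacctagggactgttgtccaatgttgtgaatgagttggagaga
Egfr region: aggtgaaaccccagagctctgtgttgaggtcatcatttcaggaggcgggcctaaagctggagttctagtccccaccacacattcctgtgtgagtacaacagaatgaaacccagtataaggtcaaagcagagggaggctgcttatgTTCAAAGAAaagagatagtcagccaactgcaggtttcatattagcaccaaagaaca

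The label liver was checked at hepatocyte genes. The promoter of Alb, which encodes serum albumin, had 46 tags at its summit in fed and 91 in fasting liver. The promoter of Apoa1, the main protein of high-density lipoprotein, had 143 and 235. Both were open in both states, with ranks between 85.5 and 97.6 on a scale from 0 to 100, where the rank is the percentile of a region's p-value within its own library. Markers of other liver cells were low: the summed promoter tags went from 75 to 73 for 8 Kupffer cell genes, with C1qa and Vsig4 listed in neither state, and from 27 to 36 for 8 lymphocyte genes, of which Cd3e, Cd79a, Cd79b and Ms4a1 were at 0 in both. They went from 220 to 268 for 7 endothelial genes, from 115 to 146 for 7 stellate cell genes and from 130 to 178 for 7 cholangiocyte genes, with Krt19 at 0 in both. Over all protein-coding genes the sum went from 838307 to 1567673, a ratio of 1.87. These lists, with ratios of 0.97 to 1.37, were lower relative to all genes in fasting. The hepatocyte genes Alb and Apoa1 together, with 1.72, were also below that ratio. Genes with no listed region entered the sums as 0. This held for 3 Kupffer cell and 6 lymphocyte genes in fed liver, and for 3 and 5 in fasting liver. The part of such low counts in these ratios was not tested. In a bulk sample, fewer cells of a type and less open chromatin per cell cannot be told apart.

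The adipocyte list moved the other way, from 174 to 512 tags over 6 genes. Lep, the gene of the adipocyte hormone leptin, was listed in neither state. The Adipoq promoter went from 36 to 135 tags, and that of Cidec, a lipid droplet protein that is also a PPARA target in hepatocytes, from 32 to 134. Cidec thus stands in a liver list as well, and the part of adipose tissue in the fasting values was not tested. Erythroid genes went from 215 to 340, neutrophil genes from 35 to 25, pancreatic acinar genes from 68 to 83 and kidney tubule genes from 169 to 227, with between 1 and 4 members of each list at 0 in a state.

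Depth was alike in the 2 libraries, as read from the background, the expected tags at the lowest local rate, which was 2.80 in fed and 2.82 in fasting liver. The summits were not alike: the median region of the set had 15 tags in fed and 21 in fasting. Among 105713 pairs of overlapping regions the median went from 22 to 31 tags. After scaling by the background, the median ratio of fasting over fed was 0.48 on the log2 scale, or 1.39-fold, and it was 0.64 at promoters and 0.35 elsewhere. With 1 library a state, a difference in library quality and a difference in the livers cannot be told apart for this overall shift. Changes of single regions are therefore given as relative log2 values, which have the median of 0.48 taken off, beside the tags themselves.

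Fasting-only regions made up 38.8% of the fasting set (38.6% to 39.1%) and fed-only regions 44.7% of the fed set (44.5% to 44.9%). Most were weak. The median fasting-only region had 13 tags at its summit and the median fed-only region 12, against 33 and 22 for the regions found in both states. The share that belonged to 1 state was 75.8% in fasting and 75.2% in fed liver for ranks up to 40, and 2.38% and 1.67% between 80 and 90. Above rank 95 only 2 fasting regions of 10892 and 1 fed region of 11991 had no counterpart. The order of the 2 states turned with the regions taken. With fed regions limited to the strongest, as many as the fasting set held, 62617 (37.6%) were fed-only against 64746 (38.8%) fasting-only. With a −log10 q of at least 6, 7833 regions (9.80%) were fasting-only and 2828 (4.27%) fed-only, and among the 50000 strongest of each library there were 1063 and 565.

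**Figure D1:**
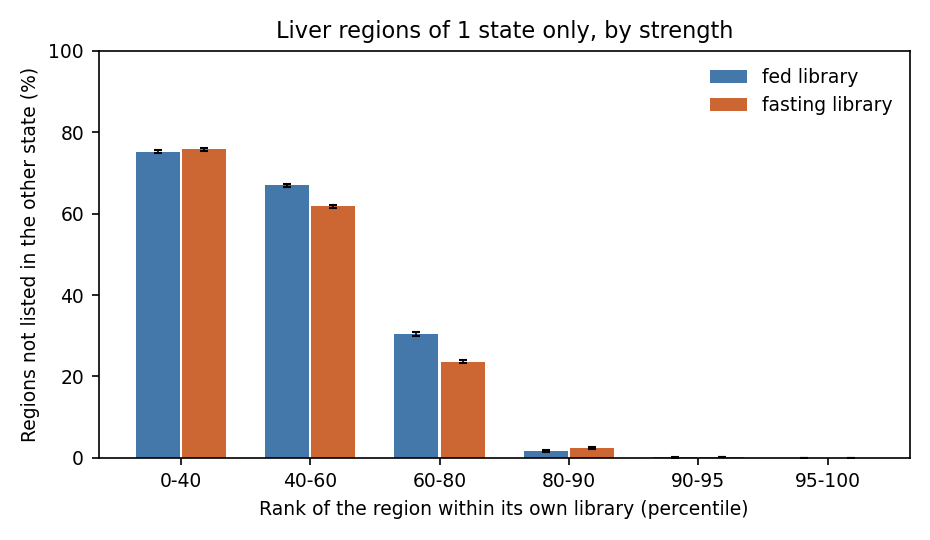
Share of the regions of the fed (blue) and the fasting (orange) set that no listed peak of the other state overlaps (y axis, %), by rank of the region within its own library (x axis, percentile); bars are shares and whiskers exact 95% intervals for counting error. The share fell from 75.2% and 75.8% at ranks up to 40 to 1.67% and 2.38% between 80 and 90.

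The 2 classes lay in different places. Within 3000 bp of an annotated start lay 27.3% of fasting-only regions (27% to 27.7%) and 19.6% of fed-only regions (19.4% to 19.9%), against 41.5% and 42.7% of the regions found in both states. Beyond 50000 bp from any start lay 10.5% of fasting-only and 18.7% of fed-only regions. Regions of other organs, used as reference lists, covered fasting-only regions more often: 59.6% were open in at least 1 of the 7 other tissues, against 39.0% of fed-only regions. Both classes lay below the regions found in both states, with 87.1% in the fasting and 86.7% in the fed set. In kidney the fasting-only and fed-only shares were 28.8% and 12.9%, in brown adipose 25.6% and 11.7%, and in heart 20.9% and 12.2%. These shares were closest in spleen, with 27% and 20.7%. Fasting-only regions were also stronger in their upper tail, with a 90th percentile of 28 tags against 16, so strength moved with these differences, and its part in them was not tested.

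The strongest fasting-only region by rank lay on chr7:47042149-47042467, intergenic and 8264 bp from a start of Tmem86a, which encodes a lysoplasmalogen hydrolase, with 94 tags and a rank of 97.2. The next was intergenic, 28674 bp from Setmar, with 112 tags. The Cyp4a14 region printed above came next. Others among the 10 strongest lay in introns of Atp10d (nearest start Commd8), Pgm3, Pptc7 and Myo3a, in a UTR of Slc13a3, and in intergenic DNA nearest Ets1 and Gata6. The Myo3a region had 414 tags over 175 expected from its surroundings, so its fold enrichment was 2.36 where the others had 5.39 to 20.8. The Ets1 region, 203612 bp from a start, holds the repeat core AGGTCAAAG and was open in 6 of the 7 other tissues.

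Among the 10 strongest fed-only regions, that in Vti1a had 44 tags and a rank of 95.7. Those nearest Olfr1423, Bhmt, Phlda1, Serpina5 and Dio3 were intergenic, and those in Kalrn, Tprkb, Rsrc1 (nearest start Mlf1) and Dab1 were intronic, with 32 to 109 tags. STAT5 letters stood in 3 of these 10 (Vti1a, Kalrn, Dio3) and in none of the 10 fasting-only regions. Over all regions, promoters included, they stood in 5.70% of fed-only and 5.05% of fasting-only regions. Among the strongest regions the glucocorticoid core stood on both sides. It was in the fed-only regions nearest Olfr1423 and Serpina5, and in the fasting-only regions in Atp10d and Pgm3 and nearest Gata6. Bhmt encodes the enzyme that remethylates homocysteine from betaine, and regions on both sides of the comparison lay near it. A region on chr13:93615061-93616302, 21939 bp from its start, went from 16 to 181 tags, while the fed-only region with 45 tags lay 24384 bp from the same start. A further fed-only region, chosen after the values were seen, lay in a coding exon of Dock6, 3401 bp from a start of Angptl8, an insulin-induced hepatokine that rises on feeding. It had 69 tags and a rank of 90.4, while the Angptl8 promoter itself had 84 tags in fed and 117 in fasting liver.

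Within the regions open in both states, summit tags were 2-fold or more higher in fasting at 21211 pairs (20.1%) and lower at 542 (0.513%) after scaling by background. At 1.5-fold the shares were 43.2% and 3.57%. Relative to the median region the counts at 2-fold were 4406 (4.17%) and 4720 (4.46%). For gene lists, the pairs with a summit within 50000 bp of a member's start were counted, and around all protein-coding genes 4.35% of such pairs were 2-fold or more higher in relative terms and 3.90% lower. At promoters, taken as the strongest region within 3000 bp of a start, 4.59% of 16105 genes were 2-fold or more higher and 1.94% lower, with a median relative log2 of 0.36 (35.1% and 0.149% after scaling by background alone). By rank, 9.64% of 18073 promoters rose by 10 points or more and 13.5% fell, or 9.63% and 13.4% where the other state was read through an overlapping region. Of all genes, 85.8% had at least 1 fasting-only and 89.0% at least 1 fed-only region within 50000 bp.

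Of the 15 pathway lists, the genes that respond to PPARA had the highest median ratio of fasting over fed promoter tags. They also had the highest share of pairs raised in fasting. Of 17 promoters, 8 were 2-fold or more higher in relative terms and none lower, and the median relative log2 was 0.80. Of 322 pairs near these genes, 64 (19.9%, 15.7% to 24.7%) were 2-fold or more higher and 7 (2.17%) lower. Summed gene by gene, the members had 208 fasting-only and 71 fed-only regions within 50000 bp, a ratio of 2.93. Of the 17, 15 had more fasting-only regions, where 42.9% of all genes did so and 40.9% had more fed-only regions. Every pathway list had more fasting-only regions by such sums, and the ratio was 1.05 for cholesterol genes and for all genes. The hepatocyte genes Alb and Apoa1 together had 24 and 6.

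Fgf21, which encodes the fasting hormone of the liver, went from 17 to 85 promoter tags, a ratio of 4.96 (2.93 to 8.92), and its rank rose from 69.6 to 90.2. It had 16 fasting-only regions and 1 fed-only region nearby. Fut1 shares this promoter region, so these genes could not be told apart. Cidec rose from rank 77.0 to 94.0, the other call by rank in the list.

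Cyp4a10 and Cyp4a14, which hydroxylate fatty acids at the omega end, went from 33 to 133 and from 20 to 87 tags. Near them lay 23 and 22 fasting-only regions and no fed-only region. Within 150 kb of Cyp4a14 the fed set held 26 regions, of which 1 was fed-only, with at most 49 tags, and the fasting set 59, of which 37 were fasting-only, with at most 174. The tags expected from their surroundings ran from 2.80 to 3.67 in fed and from 2.82 to 33.2 in fasting. They were 26.7 at the region printed above, so many fasting-only regions stood on a raised stretch. The largest relative rise of any pair was in this cluster, in an intron of Cyp4a32 on chr4:115606230-115608265, from 14 to 174 tags (relative log2 3.15). The Cyp4a genes are near-identical copies, so reads may have been placed among them unevenly and the values of single copies are uncertain.

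Ppara itself, the receptor gene, went from 57 to 183 tags (relative log2 1.20), and 11 of 39 pairs near it were 2-fold or more higher. Angptl4, an inhibitor of lipoprotein lipase, went from 48 to 149, and Pdk4, which blocks pyruvate oxidation, from 41 to 98. Vnn1 and Creb3l3, a pantetheinase and a fasting-active transcription factor, had relative log2 values of 1.14 and 1.01. A region 7344 bp from a start of Plin5, which coats lipid droplets, and nearest to Plin4, went from 27 to 144 tags. Slc16a13, a monocarboxylate transporter, went from 22 to 29 tags, above 1 after scaling by background but below the median region (relative log2 -0.09). At Fabp1, the liver fatty acid binding protein, 3 of 23 pairs were 2-fold or more lower although its promoter went from 58 to 123.

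**Figure D2:**
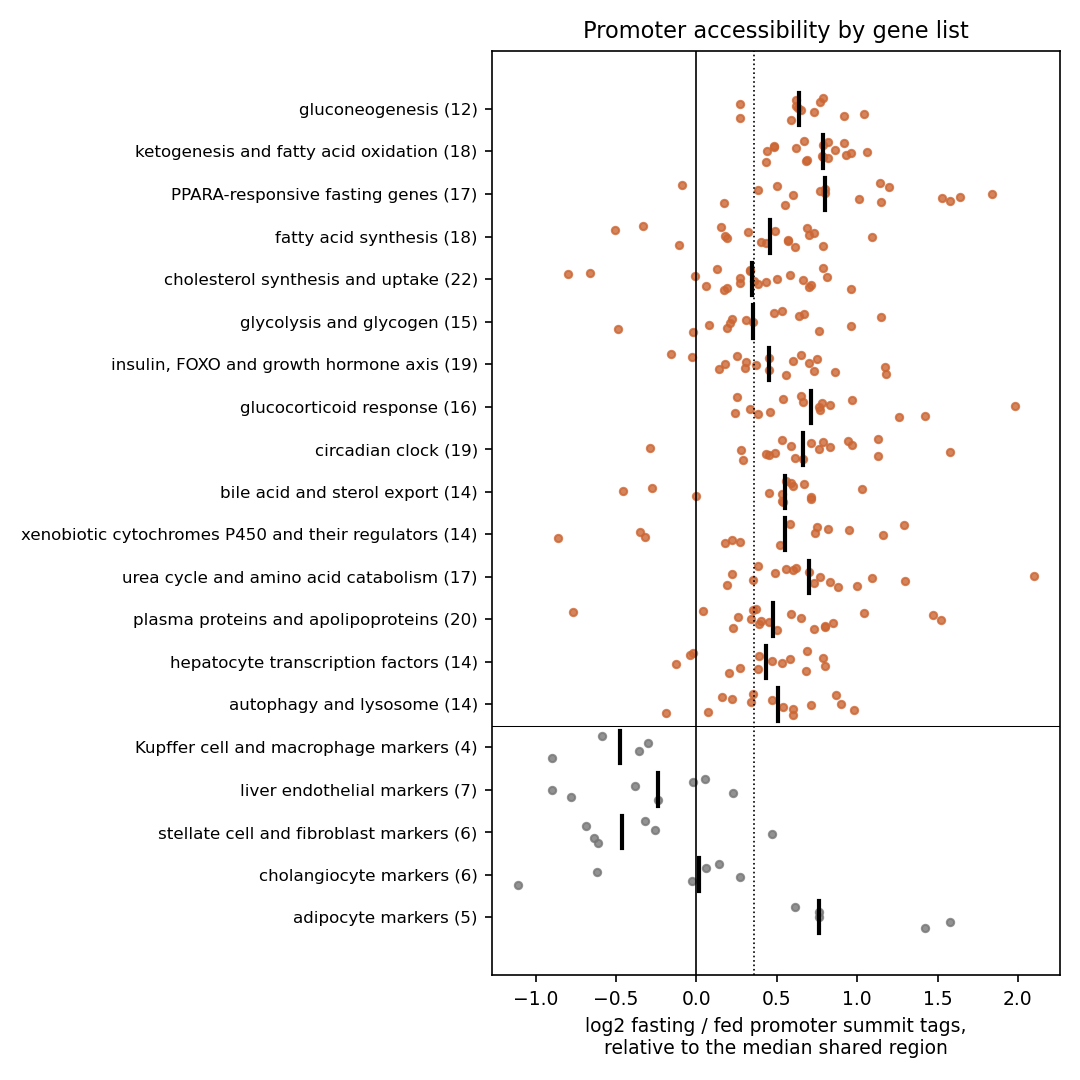
Relative log2 ratio of fasting over fed promoter summit tags (x axis; 0, solid line, is the median pair of regions open in both states) for members of 15 pathway lists (orange) and 5 marker lists (grey), 1 point a gene, with the list median as a bar and the number of genes with tags in both states in parentheses. The dotted line is the median of all genes, 0.36; the PPARA list had its median at 0.80 and the Kupffer cell list at -0.48.

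Ketogenesis and fatty acid oxidation genes were higher as a group rather than by single calls. All 18 promoters lay above the median region, as did the median of all promoters (relative log2 0.36), and the list median was 0.78. Only 1 was 2-fold or more higher, that of Cpt1a, the carnitine transferase that admits long-chain fatty acids to mitochondria (65 to 190 tags). Of 309 pairs, 32 (10.4%, 7.19% to 14.3%) were 2-fold or more higher and 5 (1.62%) lower.

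Cpt1a had 30 fasting-only and 4 fed-only regions nearby, and Acaa2, the mitochondrial thiolase, 11 and 4. Over the list the sums were 220 and 89, and 16 of 18 members had more fasting-only regions. No member's promoter moved by 10 points in rank. Bdh1, which interconverts the 2 ketone bodies, moved most upward (4.2 points), and Hadha and Hadhb, which share a promoter, and Acaa1b moved most downward (-2.8).

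Gluconeogenesis genes had the highest share of raised pairs beside the PPARA list. Of 261 pairs, 51 (19.5%, 14.9% to 24.9%) were 2-fold or more higher and 1 (0.383%) lower. The promoters had a median relative log2 of 0.64, and 1 of 12 was 2-fold or more higher, that of Gpt, alanine aminotransferase (59 to 170 tags). The sums of nearby regions were 134 fasting-only and 61 fed-only.

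Pck1, phosphoenolpyruvate carboxykinase, went from 79 to 171 promoter tags, and had 15 fasting-only and 2 fed-only regions nearby. Its rank went from 94.2 to 86.4. A second region in its UTR, 8 bp from a start on chr2:173152814-173153665, went from 32 to 172 tags. G6pc, the phosphatase that frees glucose for export, went from 54 to 91 (relative log2 0.27), below the median of all promoters, and had 7 fasting-only and 9 fed-only regions. Ppargc1a, a coactivator induced by glucagon, also stood at 0.27, with 35 and 59 tags. Raised pairs numbered 10 of 19 near Tat, 9 of 24 near Gpt2, 7 of 20 near Gpt and 4 of 20 near Got1, which encode aminotransferases, and 5 of 22 near Pck1. Sds, serine dehydratase, had the largest rank difference upward (4.8 points).

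**Figure D3:**
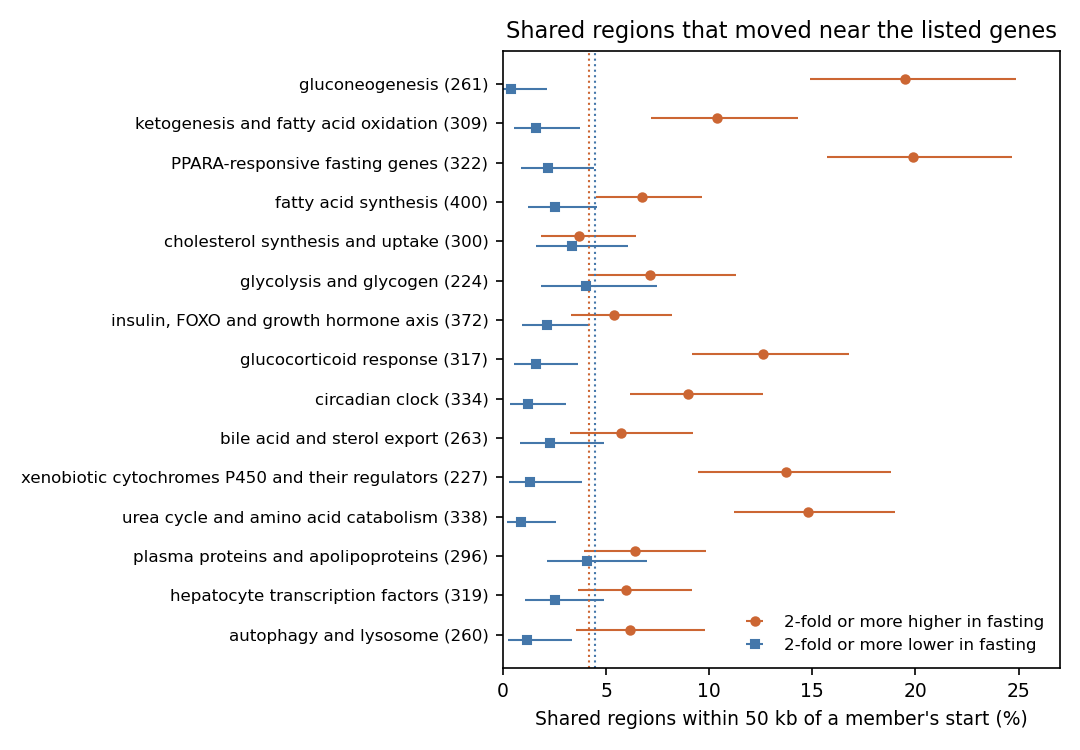
Share of pairs of regions open in both states, within 50000 bp of a member's start, that were 2-fold or more higher (orange circles) or lower (blue squares) in fasting relative to the median pair (x axis, %), with exact 95% intervals for counting error and the number of pairs in parentheses for 15 lists. Dotted lines mark all pairs, 4.17% higher and 4.46% lower; gluconeogenesis (19.5%) and PPARA genes (19.9%) lay farthest to the right and cholesterol genes (3.67%) near the line.

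Glucocorticoid response genes were also higher, led by the Fkbp5 locus. Of 317 pairs, 40 (12.6%, 9.17% to 16.8%) were 2-fold or more higher and 5 (1.58%) lower, and the promoter median was 0.71, with 3 of 16 promoters 2-fold or more higher. Fkbp5 encodes a chaperone of the glucocorticoid receptor that limits its signalling. Of 27 pairs to which it was the nearest gene, 15 were 2-fold or more higher and none lower, the most of any gene in the genome among 17204 with a pair. The 15 went from a median of 16 tags to 66, and 11 of them were intronic. The tags expected from their surroundings went from a median of 4.01 to 13.4 over these 15, which were chosen by their summits. The Fkbp5 promoter, at rank 99.5 in both states, went from 101 to 241.

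Lcn2, which encodes the acute phase protein lipocalin-2, rose from rank 71.8 to 93.6 (19 to 105 tags), and Cebpb, a bZIP factor of fasting and inflammation, from 87.2 to 97.6 (60 to 225). Cdkn1a, the cell cycle inhibitor p21, had the other 2-fold promoter (39 to 131). Per1, a clock gene induced by glucocorticoids, went from 42 to 115. A region 1281 bp from the start of Cebpd, inside a coding exon of Spidr, went from 30 to 197 tags. Tsc22d3, which encodes the glucocorticoid-induced leucine zipper, went from 57 to 95 and had the lowest rank difference (-2.2 points).

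Among clock genes the highest promoters were those of output and repressor genes. Of 334 pairs, 30 (8.98%, 6.14% to 12.6%) were 2-fold or more higher and 4 (1.20%) lower. The 3 promoters past 2-fold were those of Dbp (33 to 138 tags) and Tef (61 to 187), PAR bZIP output factors, and Ciart, a repressor of the clock (34 to 104). In an intron of Ciart 1 region went from 14 to 104 and a second, 334 bp from its start, from 15 to 99. Arntl and Npas2, which encode activators, had relative log2 values of 0.29 and -0.29, and Npas2 with 41 and 47 tags was above 1 after scaling by background. Dbp had the largest rank difference upward (9.7 points) and Npas2 and Hlf the largest downward (-1.8).

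Summed gene by gene, urea cycle and amino acid genes had the highest ratio of nearby fasting-only to fed-only regions after the PPARA list among the pathway lists. The sums were 249 and 94, with 16 of 17 members on the fasting side. With each region counted once the PPARA list had 177 and 70 and the urea cycle list still 249 and 94, so the order of these lists turned. Of 338 pairs, 50 (14.8%, 11.2% to 19.0%) were 2-fold or more higher and 3 (0.888%) lower. Hpd, which degrades tyrosine, went from 44 to 265 promoter tags, a ratio of 5.98 (4.33 to 8.43) and the most of any listed gene, while its rank rose by 10.3 points but moved by -2.9 when ranked by fold enrichment. Psmd9, a proteasome chaperone whose start lies in the same region, had the largest rise of all promoters in the genome (43 to 265). Chac1, which degrades glutathione and responds to ATF4, rose from rank 58.2 to 88.9 (20 to 69 tags), and Gls2, liver glutaminase, went from 68 to 202.

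In the urea cycle proper, Ass1, which joins citrulline and aspartate, had 33 fasting-only and 9 fed-only regions nearby. A region 4934 bp from a start of Asl, the next enzyme, went from 24 to 183 tags, a ratio of 7.57. Cps1, the entry enzyme, had 8 of 60 nearest pairs raised, from a median of 31 to 102 tags, although its promoter stood at the median of all genes (60 to 107, relative log2 0.35). Arg1 went from 58 to 149. Nags, which makes the activator of Cps1, had the lowest rank difference (-3.3 points). Near Tdo2, the enzyme that opens the tryptophan ring, 7 of 22 pairs were raised.

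Cytochromes P450 of xenobiotic metabolism were mixed, while the regions around their electron donor were raised. Near Por, the reductase that serves all microsomal P450 enzymes, 15 of 32 pairs were 2-fold or more higher, of 31 in 227 pairs near the whole list (13.7%, 9.47% to 18.8%), and 3 (1.32%) were lower. A region in an intron of Tmem120a, 9831 bp from a start of Por, went from 15 to 108 tags. Nr1i3, the receptor CAR, went from 34 to 116 and Cyp2d9 from 76 to 238. Cyp3a11 rose from rank 72.9 to 83.0 (17 to 46 tags). Cyp2b13, a gene of the female liver, had no listed promoter region in fed and one of 13 tags in fasting, and Cyp2b9, of the same cluster of near-identical genes, fell from rank 54.7 to 15.5 on 13 and 10 tags. Cyp2f2 and Cyp2c29 lay below the median region (relative log2 -0.35 and -0.32), though above 1 after scaling by background.

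No list of fed-state genes had more than 4.02% of its pairs lower, against 3.90% around all genes. For fatty acid synthesis, 27 of 400 pairs (6.75%, 4.50% to 9.67%) were 2-fold or more higher and 10 (2.5%) lower, and the promoter median was 0.46. Scd1, the stearoyl-CoA desaturase, was among the lowest members: 60 tags in fed and 59 in fasting (relative log2 -0.51), 3 of 13 nearby pairs 2-fold or more lower and none higher. Thrsp, a lipogenic gene, had 62 and 69 tags (relative log2 -0.33, but above 1 after scaling by background) and the largest rank difference downward (-5.8 points). Fasn, fatty acid synthase, and Srebf1, the lipogenic factor SREBP-1, went from 53 to 84 and from 86 to 134, below the median promoter. Inside Srebf1, 80 bp from a start, a separate region went from 53 to 26 tags. Me1, malic enzyme, differed upward in rank by 8.0 points, yet had 10 fasting-only and 23 fed-only regions nearby. Fads2, a desaturase of polyunsaturated fatty acids, had the 1 promoter past 2-fold (58 to 173).

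Cholesterol genes stood closest to the background. Of 300 pairs, 11 (3.67%) were 2-fold or more higher and 10 (3.33%) lower, and 111 fasting-only against 106 fed-only regions lay near the members. Pmvk, a kinase of the mevalonate pathway, fell from 90.2 to 78.9 (35 to 31 tags). Stard4, a sterol carrier, went from 41 to 99 tags and differed upward by 6.2 points. Near Insig1, which holds SREBP in the endoplasmic reticulum, 1 region went from 45 to 13 tags and another from 40 to 149.

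For glycolysis and glycogen, 16 of 224 pairs (7.14%, 4.14% to 11.3%) were 2-fold or more higher and 9 (4.02%) lower. Ppp1r3c, a glycogen-targeting subunit of protein phosphatase 1, went from 47 to 146, the largest rise of the list, and Gys2, liver glycogen synthase, from 75 to 204.

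The insulin, FOXO and growth hormone axis held members in both directions. Igfbp1, a FOXO1 target that binds IGF-1, went from 61 to 192 tags and Ddit4, an inhibitor of mTORC1, from 52 to 165. These were the 2 of 19 promoters past 2-fold. Igf1, the growth hormone-induced growth factor, went from 44 to 68 at its promoter, but 7 of its 30 nearest pairs were 2-fold or more lower and none higher, from a median of 27 to 12 tags. Irs2, an adaptor of the insulin receptor, had 7 of 58 nearest pairs higher and none lower, and Foxo1 7 of 59 higher and 2 lower. Trib3, an inhibitor of AKT, had the largest rank difference downward (-7.0 points).

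Bile acid genes included 3 at or below the median region. Cyp7b1, of the alternative pathway, had 58 and 59 tags (relative log2 -0.46, though above 1 after scaling by background), with 3 of 9 nearby pairs lower. Nr0b2, the repressor SHP, had 87 and 100 (-0.28, likewise above 1) and differed by -9.98 points in rank, just short of the 10 points of a call. Baat, which conjugates bile acids, went from 40 to 56 and stood at the median (0.00). Cyp7a1, the rate-limiting enzyme, went from 37 to 71, and Cyp8b1, which sets the share of cholic acid, from 49 to 140. Nr1h3, the oxysterol receptor LXR alpha, had the largest rank difference upward of the list (1.4 points).

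Plasma protein genes were near the background by pairs, with 19 of 296 (6.42%) higher and 12 (4.05%) lower. Hp, haptoglobin, rose from rank 85.3 to 96.8 (40 to 155 tags), and Apoh and Orm1 were the other promoters past 2-fold (41 to 165 and 54 to 155). The serum amyloid genes went apart: Saa1 fell from rank 86.0 to 68.1 (34 to 28 tags) and Saa2 rose from 57.5 to 70.3 (16 to 23), and these neighbouring copies are nearly identical. Of the hepatocyte transcription factors none of 14 promoters was past 2-fold, and Prox1, with -9.96 points, had the lowest rank difference and Nr5a2, with 3.1, the highest. Among autophagy genes 16 of 260 pairs (6.15%) were higher and 3 (1.15%) lower, with Lamp2 highest (6.7 points) and Atg7 lowest (-4.0).

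The largest block of regions with fewer tags in fasting lay over Egfr, which encodes the epidermal growth factor receptor and was chosen after the values were seen. Of 48 pairs to which it was the nearest gene, 32 were 2-fold or more lower and none higher, the most of any gene among 17204. Their medians went from 43.5 to 16.5 tags and their relative log2 values ran from -2.61 to -1.01. Of the 32, 24 lay in introns of Egfr (gene body chr11:16752203-16918158), and they ran from -72607 bp to 167630 bp relative to its start along the strand. The tags expected from their surroundings went from a median of 17.4 to 4.75 over these 32, which were chosen by their summits, and the other 16 pairs were not past 2-fold. The promoter went from 119 to 190 tags at ranks of 99.3 and 99.1. Within 180 kb of the start the fed set held 110 regions, 58 of them fed-only, and the fasting set 74, 25 of them fasting-only.

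**Figure D4:**
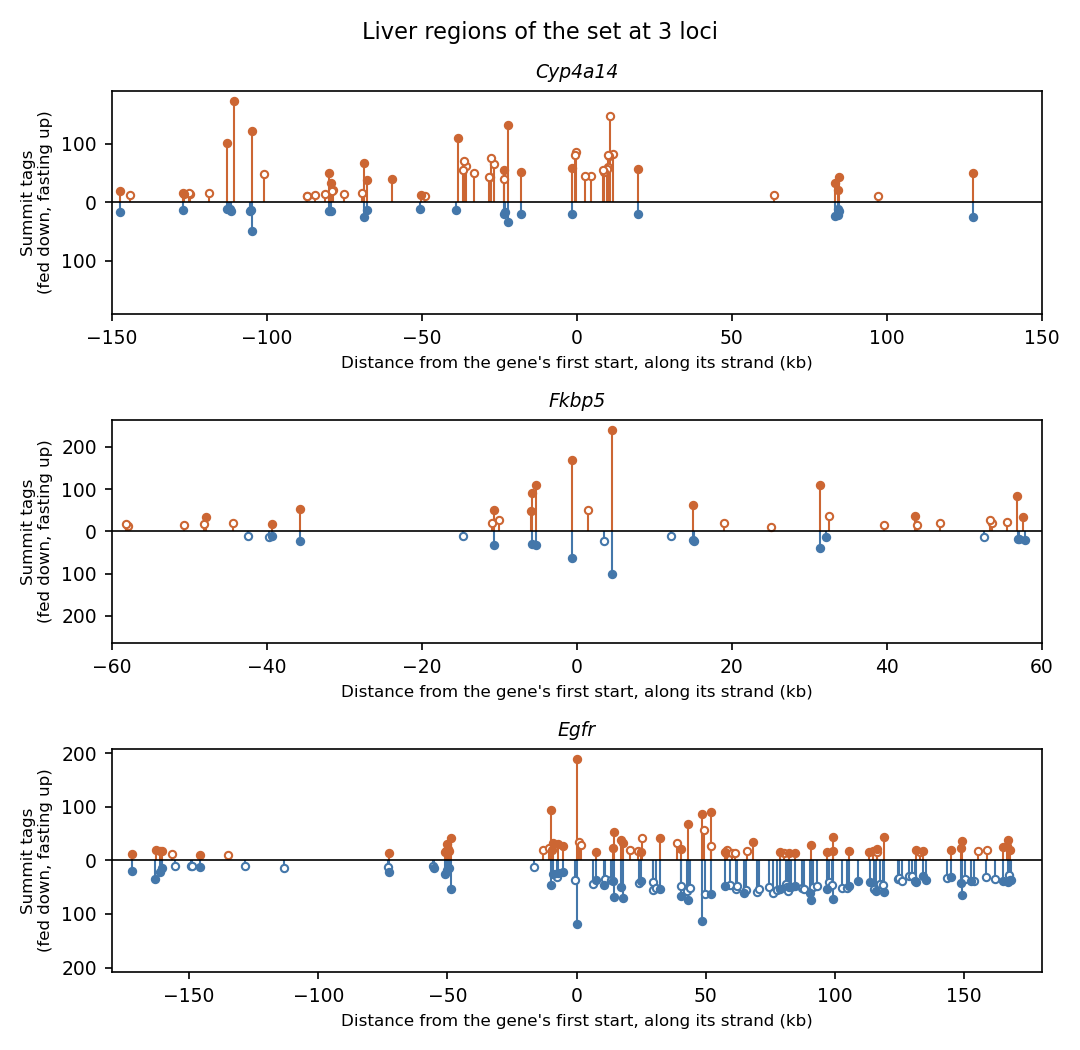
Summit tags of regions of the fasting set (orange, upward) and the fed set (blue, downward) by distance from the gene's first start along its strand (x axis, kb), at Cyp4a14, Fkbp5 and Egfr; filled points overlap a listed peak of the other state and open points do not. Fasting regions outnumber fed regions at Cyp4a14 (59 and 26) and Fkbp5 (31 and 20), and fed regions outnumber fasting regions along Egfr (110 and 74).

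Other genes with many lower regions were Ttc39c (16 of 49 pairs, from a median of 65 to 36 tags), Dock4 and Pde4d (9 each) and Onecut1, a hepatocyte factor gene, with 8 of 30 from 31.5 to 16.5. Genes with many higher regions beside Fkbp5 were Gpt2 with 9 of 17 pairs, Ppara with 9 of 43, Klf14, Lpin2, Slc38a4, an amino acid carrier, and Zbtb16, a glucocorticoid-responsive gene, with 8 each. In all, 59 genes had 5 or more higher pairs and 43 had 5 or more lower. The steepest single falls included an intergenic region 10916 bp from Serpina1e, from 92 to 20 tags, in a family of near-identical protease inhibitor genes, and a region 25988 bp from Nudt7, a peroxisomal CoA hydrolase, from 51 to 11.

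The excess of fasting-only regions within 50000 bp was largest at Adk, adenosine kinase, with 61 fasting-only and 22 fed-only regions. Cpt1a (30 and 4), Mical3 (32 and 7), Ass1 (33 and 9) and Ablim1 (31 and 8) followed, with Cyp4a10 (23 and 0), Nfia (34 and 11) and Taok3 (30 and 7) level with the last. The reverse excess was largest at Ntrk3 (17 and 58), Pcdh15 (3 and 43), Ank2 (15 and 52), Cacnb2 (8 and 44) and Dlg2 (7 and 42). The promoters of these genes differed in strength: that of Dlg2, a synaptic scaffold, had 85 tags in fed and 183 in fasting, and that of Ank2, an ankyrin, 42 and 51. The Cacnb2 promoter had 16 and 19, that of Ntrk3, a neurotrophin receptor, 16 and 29, and that of Pcdh15 had 15 and none listed.

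Among promoters with a region of the set in both states, ordered by the strongest region whose summit lay in the window in each state, the largest rises of tags after Psmd9 and Hpd were those of Pex11a, a peroxisome division factor (21 to 119), Lcn2, and Exosc5, an exosome subunit (24 to 129, or 37 to 129 when read through the overlapping fed region). The largest falls were those of Gbx1 (49 to 15), Prok1 (32 to 11), Ppm1e (29 to 11), Moxd1 (29 to 12) and Lox (25 to 11). At Gbx1 the fed region was overlapped by a fasting region of 75 tags whose summit lay outside the window, so its fall was a matter of the window. The other 4 had 25 to 32 tags in fed and 11 to 12 in fasting liver. Of these, only Moxd1 had its fasting region matched to the same fed region. At Prok1, Ppm1e and Lox the regions chosen in each state were not matched, so these falls may compare different regions. The same held for the rises of Hpd, Pex11a and Exosc5.

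Sequence letters were counted within 100 bp of the summit on both strands, for regions more than 3000 bp from a start. The letters of HNF4A (CAAAGTCCA) stood in 331 of 47042 fasting-only regions (0.704%, 0.630% to 0.783%) and 230 of 72273 fed-only regions (0.318%, 0.278% to 0.362%), and the repeat core AGGTCAAAG in 0.740% and 0.367%. The 2 strings can overlap by 5 letters, and the ROR and REV-ERB letters TAGGTCA overlap the repeat core. The HNF1 letters GTTAATNAT (0.640% and 0.414%), the D-box TTATGTAA read by DBP, TEF and NFIL3 (0.816% and 0.459%) and the AP-1 letters TGACTCA (5.11% and 4.32%) were more frequent in fasting-only regions. The STAT5 palindrome was less frequent (5.23% and 5.75%). The forkhead letters TGTTTAC stood in 3.11% and 2.73%, and the glucocorticoid core, with 7.69% and 7.51%, had overlapping intervals (7.45% to 7.94% and 7.32% to 7.70%). Regions found in both states, also away from starts, held HNF4A letters in 1.46% of the fasting and 1.31% of the fed set. The repeat core stood there in 0.965% and 0.849%, HNF1 letters in 1.53% and 1.42%, and the glucocorticoid core in 7.54% and 7.35%. For all but the last, fasting-only regions thus lay between fed-only and shared regions.

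The same letters were counted in the pairs that were 2-fold or more higher or lower in fasting, which do not share regions with those classes. For every pair the window was centred on the fasting summit, also in the lower pairs, where fasting had fewer tags in relative terms. HNF4A letters stood in 2.57% of 2452 higher pairs (1.98% to 3.28%) and 0.715% of 3498 lower pairs (0.463% to 1.05%), against 1.39% of all pairs. The repeat core stood in 1.75% (1.27% to 2.35%) and 0.600% (0.372% to 0.916%), the D-box in 1.79% and 0.572%, and AP-1 letters in 7.71% and 4.55%. The STAT5 palindrome stood in 4.69% of higher pairs (3.89% to 5.60%) and 7.15% of lower pairs (6.32% to 8.05%), against 5.78% of all. ETS and PU.1 letters GAGGAAGT (1.1% and 2.80%) and CTCF letters AGGGGGCGC (0.163% and 1.09%) were more frequent in lower pairs, and all pairs had 1.82% and 0.986%. Around all 93459 protein-coding starts the shares were 0.306% for HNF4A letters, 0.251% for the repeat core and 4.88% for the STAT5 palindrome.

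**Figure D5:**
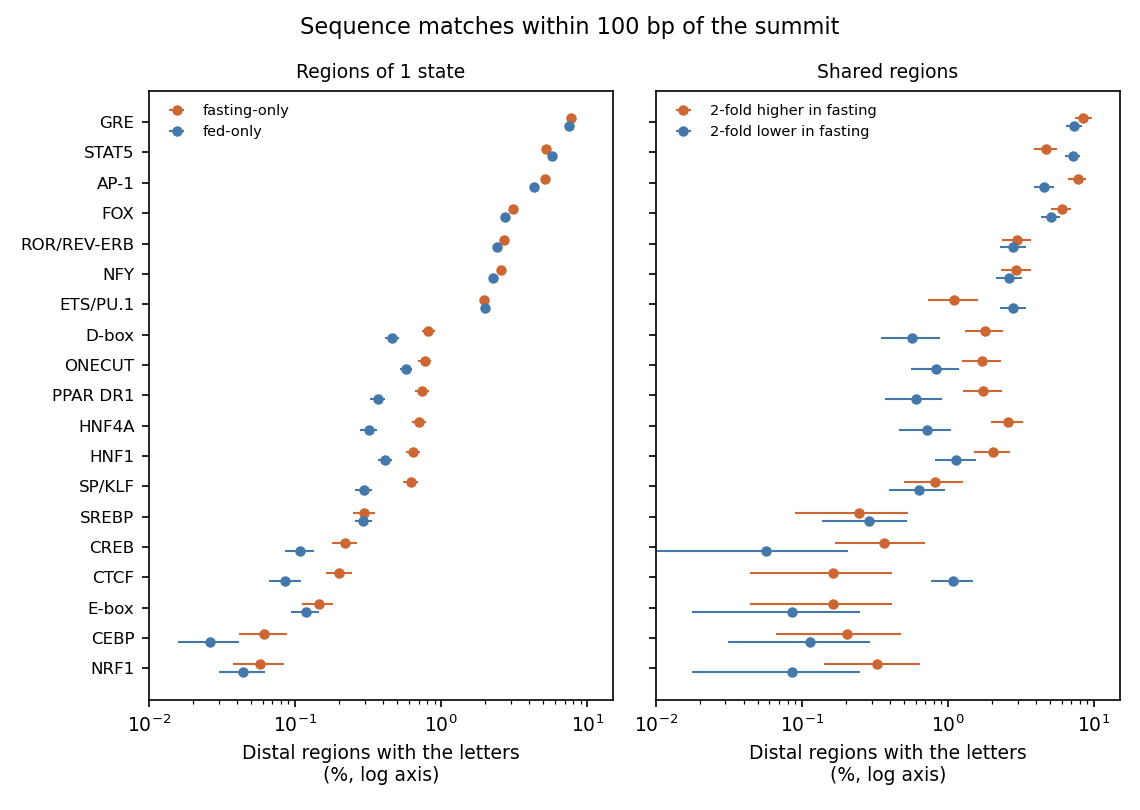
Share of regions more than 3000 bp from a start that hold each string within 100 bp of the summit (x axis, %, log scale), with exact 95% intervals for counting error; left, fasting-only (orange) and fed-only (blue) regions; right, pairs 2-fold or more higher (orange) or lower (blue) in fasting. Windows on the right were centred on the fasting summit. HNF4A letters stood in 0.704% against 0.318% on the left and 2.57% against 0.715% on the right, and the STAT5 palindrome in 5.23% against 5.75% and 4.69% against 7.15%.

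Base composition differed little: the median GC content around the summit was 49.3% in fasting-only and 47.8% in fed-only regions away from starts, and 49.3% in both classes of changed pairs. Over all regions, promoters included, 15 of the 19 strings searched were more frequent in fasting-only regions and 1 less frequent, with intervals apart. At a −log10 q of at least 6 this was 7, and among the 50000 strongest regions 2, with far fewer regions counted. Letters are a description of these windows and not a record of factor binding.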

How the data were processed

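The deposited peak lists of fed and fasting liver were analysed, and those of the other 7 tissues served as reference lists. Per the labels and the study's methods, reads were trimmed and aligned to GRCm38 by Bowtie2. Duplicates and mitochondrial reads were discarded, ends were offset for Tn5, and MACS2 called the peaks. Versions are not given in the sources used here. The fold column of the deposited lists is a ratio of summit tags plus 1 to expected tags plus 1. The −log10 p and −log10 q columns were deposited by the authors as MACS2 wrote them, from a Poisson tail in each library. None is scaled between libraries.

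Entries that share coordinates were merged into 1 region with the smallest of their p-values. The set held regions with −log10 q of at least 2. Summit and expected tags were solved from fold and p, and 100.00% of regions gave whole tags within 0.001. Pairs of regions open in both states were mutual best overlaps. Promoter tags were those of the strongest region within 3000 bp of a start, or of a stronger region of that state overlapping the other state's choice. The list of largest rises and falls of promoter tags used the first part of this rule only. Starts came from GENCODE vM21. Scripts were tested on simulated data and used Python 3.11.15, numpy 2.4.6, pandas 2.3.3, scipy 1.17.1 and matplotlib 3.10.9. Intervals are exact (Clopper-Pearson for shares) and cover counting error only; neighbouring regions are not independent.

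The members and lists were chosen with earlier results of these data known. Genes named were Alb and Apoa1, 22 fixed genes of fasting and feeding, list members whose promoter rank moved by 10 points, the member with the largest rise and fall of rank in each list, the nearest genes of the 10 strongest regions of each class, and the 5 genes with the largest excess of nearby regions or change of promoter tags in each direction. Other genes were chosen after their values were seen. Alternatives changed the q threshold, the number of regions, the overlap, the windows, the rank, the calls and the scaling. Some genes covered by this rule are not reported here.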

Additional observations from a re-analysis of the deposited data

Results flagged for a closer look

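The direction of 2 summaries differed between liver and some of the other organs, and no such difference was tested, since each organ has 1 library a state. On the log2 scale the number of fasting-only over fed-only regions was -0.47 in liver. It was also below 0 in brown adipose (-0.84), white adipose (-0.31) and lung (-0.19), and above 0 in heart (0.23), kidney (0.16), muscle (0.33) and spleen (0.26). The liver order turned with equal numbers of regions (64746 fasting-only and 62617 fed-only), with −log10 q of at least 6 (7833 and 2828) and among the 50000 strongest (1063 and 565). The share of fasting-only regions within 3000 bp of a start exceeded that of fed-only regions by 7.73 percentage points in liver, and by 1.26 in spleen and 0.144 in kidney. The difference was -0.0167 in heart and below that in brown adipose (-7.47), lung (-1.24), muscle (-1.87) and white adipose (-2.88). Depth differed between the states in brown adipose (12.77 background tags in fed, 6.76 in fasting), while liver had 2.80 and 2.82, and its part in these differences was not tested.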

How the results depend on the processing

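No paired analysis was possible because there was 1 library a state and no replicate number, and for the same reason no replicate could be left out. Of 80 values recomputed for the comparisons, 33 stayed within counting error or 1.5-fold. With −log10 q of at least 6, fasting-only regions numbered 7833 (9.80%) and fed-only 2828 (4.27%). The promoter shares were then 35.2% and 28.0%, and 44.9% and 47.9% for shared fasting and fed regions. Overlap in another tissue was 76.7% and 62.9%, and 7 motifs were more frequent in fasting-only regions. Among the 50000 strongest the numbers were 1063 (2.13%) and 565 (1.13%), with promoter shares of 32.9%, 30.1%, 48.3% and 49.8%, overlaps of 79.4% and 69.6%, and 2 motifs. With equal numbers of regions, 62617 (37.6%) were fed-only against 64746 (38.8%) fasting-only, with promoter shares of 20.6% (fed-only) and 43.5% (shared fed) and an overlap of 41.8%. With 50% overlap the shares of 1 state were 47.0% in fasting and 48.5% in fed, and overlaps in other tissues 55.9% and 35.4%. Against the other state's set only they were 41.3% and 48.2%, and on autosomes the fed share was 45.0%. With a window of 1000 bp the promoter shares were 14.9%, 9.60%, 29.3% and 30.7%, and with protein-coding starts 20.4%, 12.9%, 34.6% and 35.9%. At 20 points 1040 promoters rose and 1604 fell. Of shared regions, 4406 were 2-fold higher and 4720 lower relative to the median, and 45702 and 3771 were past 1.5-fold when scaled by background. Of 200 rank shifts of named promoters under alternatives, 181 stayed as they were, called or not called. A call was lost at 14 and gained at 4, and 1 turned, that of Hpd by fold enrichment (-2.9). The 181 include promoters with no call in either setting, so they do not measure how stable the calls were. One alternative, reading the other state through the overlapping region, was chosen after the data were seen. The cause of these movements was not tested. Weak regions set most of the numbers of 1 state, and the 12 to 13 tags of a median region leave wide counting error.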
